A study of Mus musculus with 80 samples.

Results

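The genes examined here encode the receptors for acetylcholine and the enzyme that breaks acetylcholine down. A list of 9 genes was chosen by name: the muscarinic receptors Chrm1, Chrm2, Chrm3, Chrm4 and Chrm5, the nicotinic subunits Chrna4, Chrna7 and Chrnb2, and acetylcholinesterase, Ache. Of these, 8 were among the 25160 genes of the table, and Chrm5 was not. Values were in TPM, in which the reads of a gene are divided by its length and by a total for the cell. Levels of different genes are thus on a common scale, within the limits of the gene models described below.

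Each of the 80 samples was a single FACS-sorted cell of the dorsomedial striatum of adult mice, taken through cDNA synthesis on its own. All mice were heterozygous for 2 reporters, Drd1a-TdTomato and Drd2-EGFP, BAC transgenes that follow the dopamine receptor genes Drd1 and Drd2, and there was no group without them. The 40 cells labelled Drd1 are called D1 MSN (medium spiny neurons of the direct pathway), and of the 40 cells labelled Drd2, the 38 with at most 100 TPM of Chat are called D2 MSN (indirect pathway). The other 2 cells labelled Drd2 had Chat, the enzyme that makes acetylcholine, at 347 and 307 TPM, and are called Chat cells. The next highest Chat value, in a D1 MSN, was 14.7 TPM. Drd2 reporters are known to label cholinergic interneurons as well as MSN.

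Acetylcholine in the striatum comes mostly from a small population of large interneurons that fire tonically. Muscarinic receptors are G protein-coupled: M1, M3 and M5 act through Gq and phospholipase C, while M2 and M4 act through Gi/o, lower cyclic AMP and open potassium channels. In MSN, M1 is known from both pathways and M4 mainly from the direct pathway, and M2 and M4 act as autoreceptors on the interneurons. Nicotinic receptors are ion channels built of alpha and beta subunits, and in the striatum they are best known from the terminals of dopamine axons and from interneurons. Acetylcholinesterase ends the signal by hydrolysing acetylcholine.

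No source used here ties a cell to an animal, so each group stood as 1 sample, cells were not counted as replicates and no test could be made. Plates are the only batch in the labels: FACS051_5 held 18 D1 MSN, 16 D2 MSN and both Chat cells, FACS086_4 held 21 and 19 MSN, and FACS086_9 held 1 and 3. Between 648 and 8657 genes were above 1 TPM in a D1 MSN (median 5722), between 1215 and 7942 in a D2 MSN (median 4928), and 10912 and 10251 in the Chat cells. Read depth cannot be recovered from TPM, and a 0 is therefore given as listed at 0. The label check rested on fixed marker genes: at least 4 of 6 MSN markers were above 1 TPM in all but 2 of the 78 MSN. The D1 MSN markers summed to a median of 1188 TPM for D1 MSN and 1.65 TPM for D2 MSN, and the D2 MSN markers to 11.6 and 10848 TPM. Single cells departed from this. The D2 MSN markers summed to as much as 3682 TPM in a D1 MSN, where Penk reached 3676 TPM. The D1 MSN markers summed to as much as 1218 TPM in a D2 MSN, where Tac1 reached 1218 TPM. The 2 cells with fewer MSN markers were labelled Drd1. In well D04 of plate FACS051_5, the astrocyte markers summed to 2654 TPM and the MSN markers to 133 TPM, and in well B02 of plate FACS086_4 only 648 genes were above 1 TPM. None of the 8 genes was above 1 TPM in either cell. With both left out, the share of D1 MSN above 1 TPM was 68.4% for Chrm1, 36.8% for Ache and 26.3% for Chrnb2. Both cells are counted as D1 MSN below unless stated otherwise.

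What a gene-level value can hold depends on the gene model that reads were assigned to. The table's annotation was not used here, and models were read from GENCODE M21 on the same genome build, GRCm38. The longest protein-coding model of Chrm1 (chr19:8663789-8683587, plus strand) had 6271 spliced bases in 3 exons, of which 1383 were coding and 4272 lay in the 3′ UTR. The models of Chrm2 (chr6:36388084-36528414, plus strand) and Chrm3 (chr13:9875486-10360847, minus strand) had 5676 and 4336 bases, with 3′ UTRs of 3804 and 1743 bases. Chrna4 (chr2:181018380-181043546, minus strand) had 4565 bases, Chrna7 (chr7:63098692-63212569, minus strand) 2078, Chrnb2 (chr3:89746195-89764632, minus strand) 6399 and Ache (chr5:137287519-137294466, plus strand) 2186.

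Chrm4 and Chrm5 stood apart from the other genes: each had a single model of 1 exon with 0 bases of UTR. The Chrm4 model, chr2:91927249-91928688 on the plus strand, ran for 1440 bases, whereas the RefSeq locus of the same build covered 7647 bases, 5060 of them upstream of the GENCODE model and 1147 downstream. The Chrm5 model, chr2:112479171-112480769 on the minus strand, ran for 1599 bases, and the RefSeq locus covered 57629 bases. The first and last 60 bases of both models are shown because they place the start and the stop codon, in capitals, at the very ends of the annotated gene.
Chrm4, chr2:91927249-91927308, first bases: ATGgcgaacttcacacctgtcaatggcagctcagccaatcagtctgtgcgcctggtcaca
Chrm4, chr2:91928629-91928688, last bases: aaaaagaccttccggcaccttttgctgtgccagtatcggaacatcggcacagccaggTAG
Chrm5, chr2:112480710-112480769, first bases: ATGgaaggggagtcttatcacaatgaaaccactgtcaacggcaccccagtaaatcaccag
Chrm5, chr2:112479171-112479230, last bases: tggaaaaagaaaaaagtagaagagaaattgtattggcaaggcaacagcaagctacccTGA
Reads from outside these bases, such as those from a 3′ UTR, had no annotated exon of Chrm4 or Chrm5 in this annotation. The study's methods name an Ensembl-type annotation for the gene counts, and a quantification on RefSeq models, which hold UTRs of Chrm4, is not analysed here. With RefSeq models the study reports Chrm4 as specific to D1 MSN, with most of its reads in the 3′ UTR. A 0 for Chrm4 below therefore describes this table only. The part of the models in the values was not tested.

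**Figure D1:**
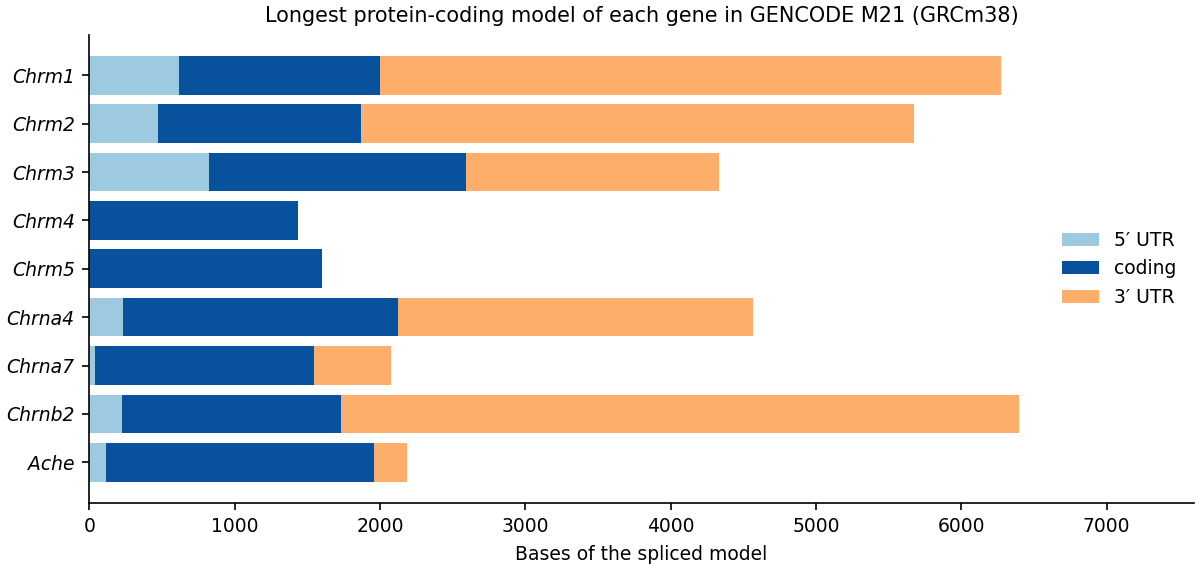
Bases of the longest protein-coding GENCODE M21 model of each gene, split into 5′ UTR, coding sequence and 3′ UTR (horizontal axis, bases of the spliced model). Chrm4 and Chrm5 have coding sequence only (1440 and 1599 bases), whereas Chrm1 and Chrnb2 have models of 6271 and 6399 bases.

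Few members shared sequence with another gene. Every stretch of 75 bases, the length of a read, was looked up in the transcripts of all other genes on both strands. None of the stretches of Chrm3, Chrm4, Chrm5, Chrna4, Chrna7 or Ache occurred elsewhere. For Chrnb2, 940 of 6325 stretches (14.9%) occurred in Adar, a gene on the opposite strand whose end overlaps that of Chrnb2 by 7252 bases. Whether reads were counted by strand is not given in the sources used here, so Chrnb2 and Adar reads from the overlap may not be told apart. Across the 78 MSN the Spearman rho of their TPM was 0.03, as a description. For Chrm1 and Chrm2, 4.11% and 1.07% of the stretches lay in the overlapping noncoding genes Gm22820 and 9330158H04Rik.

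Chrm1, the Gq-coupled M1 receptor, was the muscarinic receptor gene found in most MSN. In D1 MSN it ran from 0 to 123 TPM with a median of 7.20, and in D2 MSN from 0 to 114 TPM with a median of 0.971. It passed 1 TPM in 26 of 40 D1 MSN, or 65.0% (exact Clopper-Pearson 95% interval 48.3% to 79.4%), and in 19 of 38 D2 MSN, or 50.0% (33.4% to 66.6%). Both ranges overlapped almost wholly. Where it was above 1 TPM, its median was 31.6 TPM among D1 MSN and 10.02 TPM among D2 MSN. The intervals here and below cover counting error only.

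Chrm1 also differed between plates. In plate FACS051_5 it passed 1 TPM in 12 of 18 D1 MSN and 11 of 16 D2 MSN, and in plate FACS086_4 in 13 of 21 and 7 of 19. Of the large plates, FACS086_4 alone had the lower share in D2 MSN, and there D2 MSN had a median of 4617 genes above 1 TPM and D1 MSN 5730. MSN with Chrm1 above 1 TPM had a median of 5807 genes, and the others 4672. With both Drd1 cells of few MSN markers left out, the share in D1 MSN was 68.4%.

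Chrm3, the other Gq-coupled receptor in the table, was scarce. Values above 1 TPM occurred in 1 of 40 D1 MSN (2.5%, 0.0633% to 13.2%) and in 7 of 38 D2 MSN (18.4%, 7.74% to 34.3%). The single D1 MSN had 3.91 TPM. The D2 MSN had 99.9, 28.4, 2.06, 1.62, 1.59, 1.30 and 1.15 TPM, so 5 of the 7 lay just above the limit. Both high cells were on plate FACS051_5, and the highest, in well B10, held 70.7% of all Chrm3 TPM of the MSN. The intervals of the shares overlapped, and the direction was the same in both large plates: 1 of 18 against 4 of 16, and 0 of 21 against 3 of 19.

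Of the Gi/o-coupled receptors, Chrm2 was at or near 0 in all MSN, and Chrm4 was listed at 0 in all MSN but 1. Chrm2 was above 0 in 3 MSN, at 0.180, 0.179 and 0.136 TPM, and above 1 TPM in 0 of 78, which allows a share of up to 3.85% (3 cells of 78). Chrm4 was found in a single cell of the whole series. This was a D1 MSN, in well A05 of plate FACS086_9, with 96.6 TPM of Chrm4, 65.5 TPM of Chrm1 and 46.2 TPM of Ache. The other 39 D1 MSN, all 38 D2 MSN and both Chat cells were listed at 0, and 0 of 38 D2 MSN allows a share of up to 7.89% (3 cells of 38). Chrm4 in that cell was close to the top Chrm1 values, while no other cell had any. Chrm5, the remaining Gq-coupled receptor, was not among the genes of the table, in which every gene was above 0 in at least 1 cell.

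**Figure D2:**
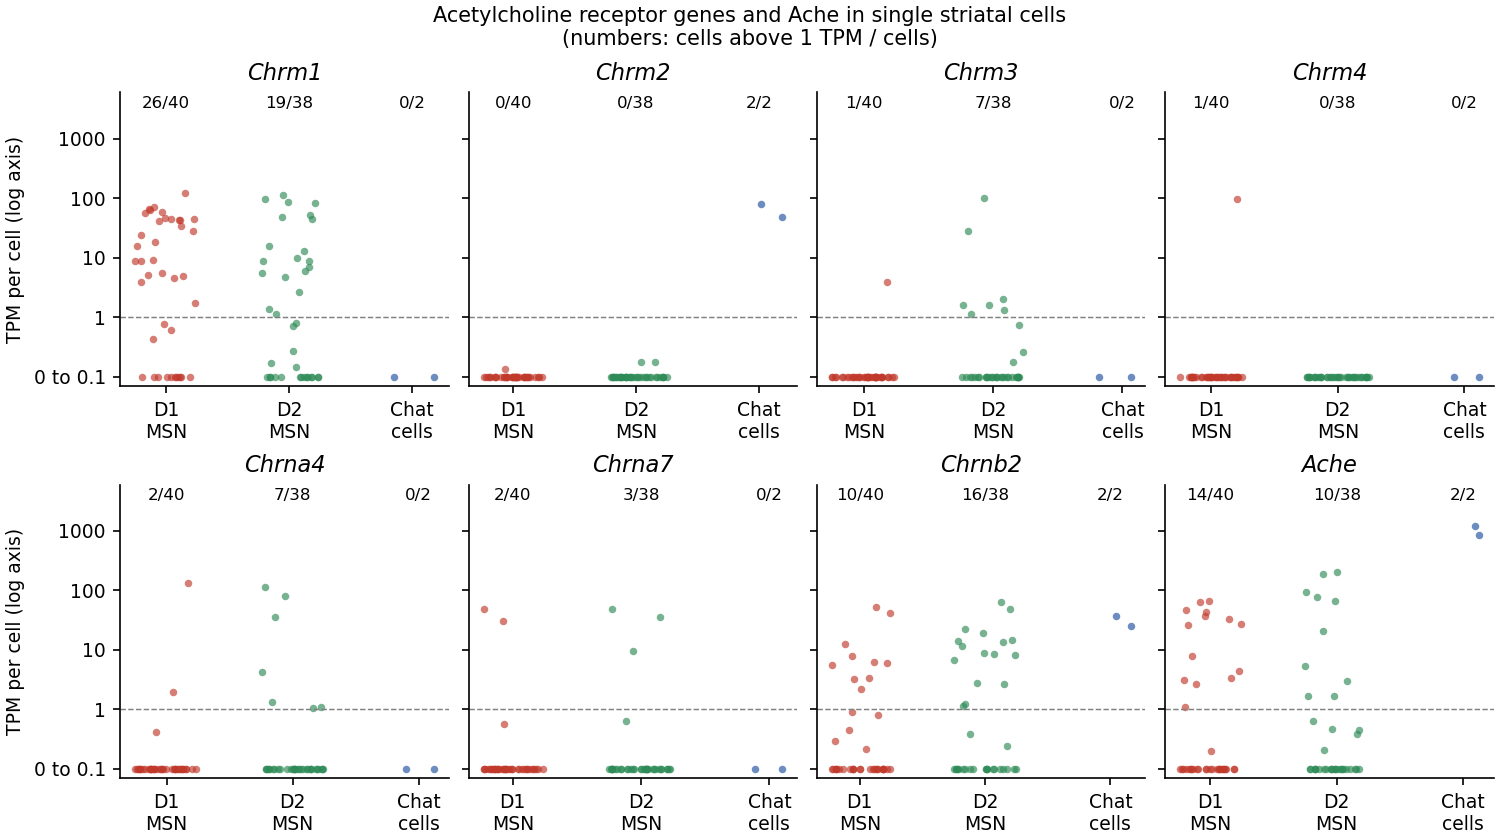
TPM of each gene in each cell (vertical axis, log scale, with values from 0 to 0.1 TPM drawn on the lowest line) for 40 D1 MSN, 38 D2 MSN and the 2 Chat cells. The numbers above the points give the cells above 1 TPM of all cells, and the Chat cells stand clear of the MSN for Chrm2 and Ache only.

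Among the nicotinic subunits, Chrnb2, the beta subunit of the main neuronal heteromeric receptors, was found most often. It ran from 0 to 53.5 TPM in D1 MSN and from 0 to 63.2 TPM in D2 MSN, and both medians were 0. It passed 1 TPM in 10 of 40 D1 MSN (25.0%, 12.7% to 41.2%) and in 16 of 38 D2 MSN (42.1%, 26.3% to 59.2%). The shares were 6 of 18 against 8 of 16 cells in plate FACS051_5 and 4 of 21 against 6 of 19 in plate FACS086_4. The order was therefore the same in both large plates, with overlapping intervals.

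Chrna4, the alpha subunit that commonly pairs with Chrnb2, passed 1 TPM in 2 of 40 D1 MSN (5%, 0.611% to 16.9%) and in 7 of 38 D2 MSN (18.4%, 7.74% to 34.3%). The D1 MSN had 132 and 1.94 TPM. The D2 MSN had 112, 81.8, 36.1, 4.30, 1.35, 1.10 and 1.05 TPM. A few cells thus stood far above the rest, 1 of them a D1 MSN. Chrna7, which forms receptors of a single kind of subunit, was above 1 TPM in 2 D1 MSN, at 48.4 and 30.7 TPM, and in 3 D2 MSN, at 48.0, 36.01 and 9.51 TPM. The shares of 5% and 7.89% had intervals that overlapped almost wholly.

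Counted together, at least 1 of the 3 nicotinic subunits passed 1 TPM in 11 of 40 D1 MSN (27.5%, 14.6% to 43.9%) and in 21 of 38 D2 MSN (55.3%, 38.3% to 71.4%). This grouping of the subunits was chosen after their values were seen. In plate FACS051_5 the counts were 6 of 18 against 10 of 16 cells, and in plate FACS086_4 5 of 21 against 9 of 19. With the limit at 5 TPM they were 7 of 40 against 16 of 38, and with the limit at 0 they were 17 of 40 against 23 of 38. The share was higher in D2 MSN in each of these counts, and the intervals overlapped in each. In plate FACS051_5 the D2 MSN also had more genes above 1 TPM (median 5923 against 5109), and in plate FACS086_4 fewer (4617 against 5730). For the muscarinic genes the same count gave 27 of 40 D1 MSN (67.5%) and 25 of 38 D2 MSN (65.8%).

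Ache was listed at 0 in most MSN and high in a few. It ran from 0 to 65.9 TPM in D1 MSN and from 0 to 203 TPM in D2 MSN, with both medians at 0. It passed 1 TPM in 14 of 40 D1 MSN (35.0%, 20.6% to 51.7%) and in 10 of 38 D2 MSN (26.3%, 13.4% to 43.1%). Where it was above 1 TPM, the median was 26.6 TPM among D1 MSN and 43.3 TPM among D2 MSN. Fewer D2 MSN than D1 MSN were above the limit, but the 4 highest values, 203, 187, 94.0 and 78.6 TPM, were all in D2 MSN. In plate FACS051_5 6 of 18 and 4 of 16 cells were above 1 TPM, and in plate FACS086_4 7 of 21 and 5 of 19.

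**Figure D3:**
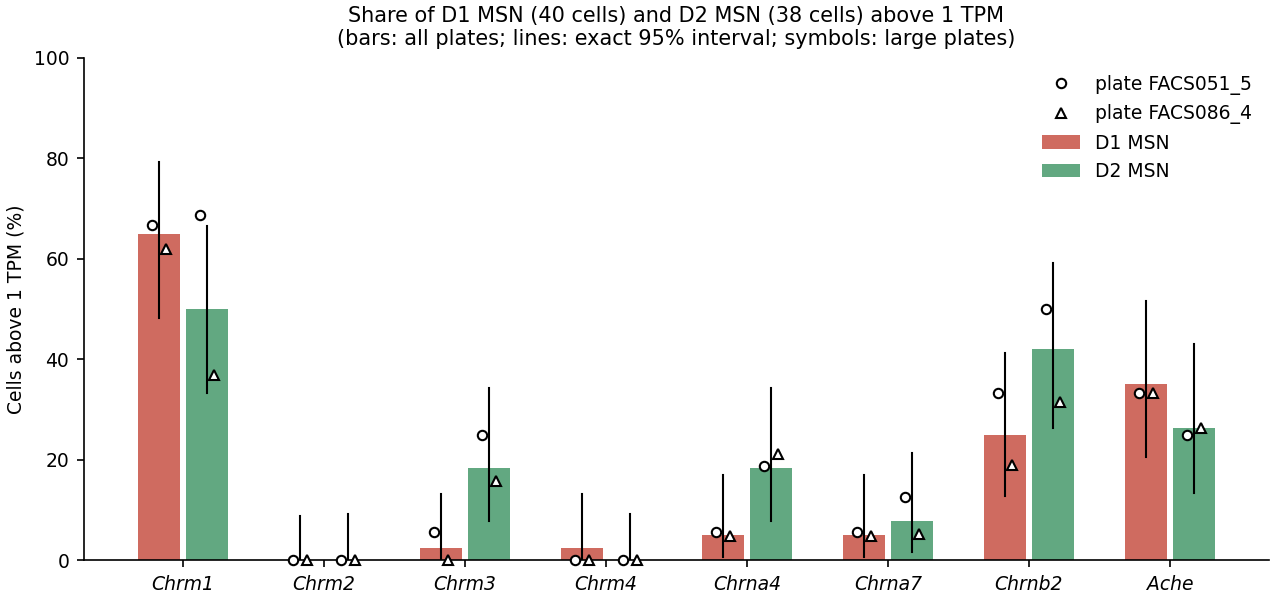
Share of D1 MSN (40 cells) and D2 MSN (38 cells) above 1 TPM for each gene (vertical axis, percent), with exact 95% intervals as lines and the shares within plates FACS051_5 and FACS086_4 as open symbols. The intervals of the 2 groups overlap for all 8 genes. Chrm3, Chrna4 and Chrnb2 have the higher share in D2 MSN in both plates, and the same count over all genes was not made. For Chrna7 the counts were 1 of 18 D1 MSN against 2 of 16 D2 MSN in FACS051_5. In FACS086_4 they were 1 of 21 against 1 of 19, a single cell in each group.

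Ordered by mean level, D1 MSN had Chrm1 (21.9 ± 28.2 TPM, SD over 40 cells), Ache (9.17 ± 18.4), Chrnb2 (3.64 ± 10.7), Chrna4 (3.35 ± 20.8), Chrm4 (2.42 ± 15.3), Chrna7 (1.99 ± 8.95), Chrm3 (0.1001 ± 0.618) and Chrm2 (0.00341 ± 0.0216). In D2 MSN the order was Ache (17.5 ± 47.8 TPM, SD over 38 cells), Chrm1 (16.3 ± 30.9), Chrnb2 (6.58 ± 13.5), Chrna4 (6.26 ± 22.7), Chrm3 (3.61 ± 16.7), Chrna7 (2.48 ± 9.67) and Chrm2 (0.00945 ± 0.0406), with Chrm4 listed at 0. No pair of neighbours in either order differed by more than the larger SD of the pair. For Chrm3, Chrna4 and Chrna7 the mean rested on few cells: the 3 highest MSN held 93.6%, 87.6% and 76.2% of all their TPM, against 22.4% for Chrm1. For Chrm4 a single cell held 100%.

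The log2 fold compared the mean TPM of D1 MSN with that of D2 MSN, each with 1 TPM added, for genes averaging at least 1 TPM over the MSN and above 0 in both groups. Of 14631 such genes, 18.4% had a fold above 1 towards D1 MSN and 12.9% a fold of that size towards D2 MSN. Among the members, 6 met the same conditions: 0 of 6 were past 1 towards D1 MSN and 1 of 6, Chrm3, towards D2 MSN. The median fold of these 6 genes was -0.72, and that of all 14631 genes 0.08. Chrm3 reached a mean of 1 TPM only through the D2 MSN, whose mean was 3.61 TPM against 0.1001 TPM, so its place among the 6 favoured a difference. Chrm4 averaged 1.24 TPM over the MSN, with 2.42 TPM in D1 MSN, but was listed at 0 in all D2 MSN. It was therefore left out, and the count towards D1 MSN and the median do not include it. No set test was made, and nothing particular to the list is read from these counts or medians.

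The fold of Chrm3 was -2.07. In plate FACS051_5 it was -2.92, and in plate FACS086_4 all D1 MSN were listed at 0, so no fold is given. Leaving out the highest cell of each group, a choice made after the values were seen, gave -1.004. Taken as the difference of mean log2 values, it was not past 1. The fold of Chrna4 was -0.74, and it had opposite signs in the large plates, 1.29 in FACS051_5 and -3.37 in FACS086_4. Without the highest cell of each group it was -2.05, since the highest Chrna4 value of the series lay in a D1 MSN.

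The other folds were smaller. Chrm1 had a fold of 0.41, with 0.43 in plate FACS051_5 and -0.08 in FACS086_4. Chrnb2 had -0.71, with 0.62 and -2.16 in the same plates, and Ache had -0.86, with -0.09 and -1.61, and 0.12 when taken as the difference of mean log2 values. Chrna7 had -0.22, with -0.76 and 0.19. Chrm1, Chrna4, Chrna7 and Chrnb2 thus changed sign between the plates. So did 48.6% of the 12570 genes of the table with a fold in both large plates.

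**Figure D4:**
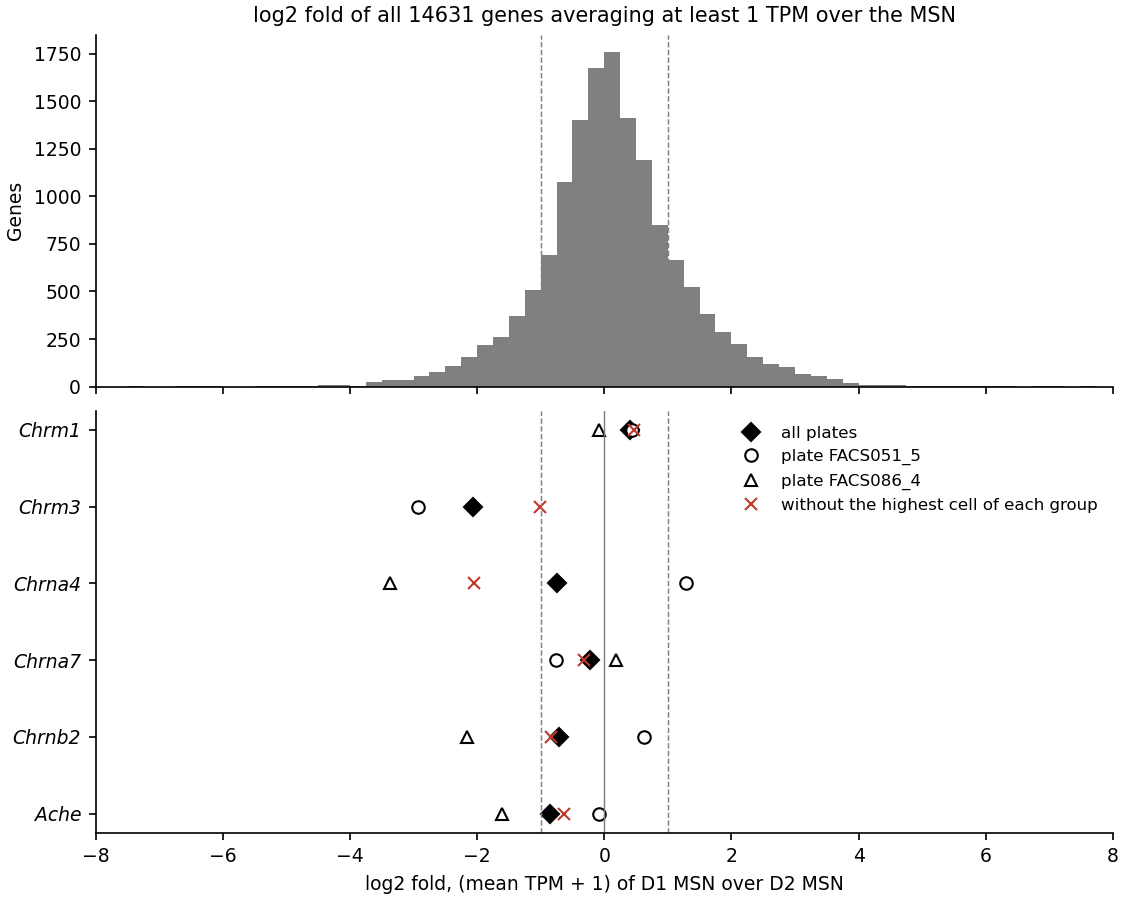
Top, the log2 folds of all 14631 genes averaging at least 1 TPM over the MSN, as a histogram of genes. Bottom, the 6 acetylcholine genes among them, over all plates (diamonds), in each large plate (open symbols) and without the highest cell of each group (crosses), on the same horizontal axis of log2 fold with D1 MSN to the right; only the diamond of Chrm3, at -2.07, is past 1 in size.

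The Chat cells differed from the MSN in which acetylcholine genes they held. Their identity was first checked on markers of cholinergic interneurons: Slc18a3, the vesicular acetylcholine transporter, was at 421 and 293 TPM in wells A08 and B02, Slc5a7, the choline transporter, at 485 and 699 TPM, and Lhx8, a transcription factor of these interneurons, at 399 and 494 TPM. Gbx2, another such factor, was listed at 0 in well A08 and was at 131 TPM in well B02. Without Chat, which had set these cells apart, the other 5 markers summed to 2156 and 2822 TPM, and in an MSN to at most 6.11 TPM. In no MSN did Slc18a3 exceed 1.33 TPM or Slc5a7 1.13 TPM. The MSN markers summed to 79.9 and 79.6 TPM in the Chat cells, against a median of 3527 TPM in D2 MSN, and Adora2a and Gpr6, markers of D2 MSN, were listed at 0. Drd2 itself was at 97.2 and 79.5 TPM. Of the D1 MSN markers, Isl1 was at 208 and 343 TPM in the Chat cells. Isl1 reached at most 1.79 TPM in D2 MSN and 654 TPM in D1 MSN. Drd1 was at 3.64 and 0.834 TPM in the Chat cells, Pdyn at 0.941 and 0 TPM, and Tac1 was listed at 0. The 2 cells are given by their own values throughout, since 2 cells of 1 plate allow no estimate of spread.

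Chrm2, the muscarinic autoreceptor gene, was at 79.0 TPM in well A08 and 48.9 TPM in well B02. The highest of the 38 D2 MSN had 0.180 TPM and the highest of the 40 D1 MSN 0.136 TPM, so the lower Chat cell was 272 times the highest D2 MSN. That ratio rests on a denominator far below 1 TPM. Ache was at 861 and 1189 TPM, and the lower of these was 4.24 times the highest D2 MSN at 203 TPM. All MSN lay below both Chat cells for these 2 genes. Of the 8 listed members, 2 were higher in both Chat cells than in every D2 MSN, set beside 2.19% of the 25159 genes of the table other than Chat.

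Chrnb2 was at 25.2 and 37.5 TPM in the Chat cells, inside the range of the MSN. Of the D2 MSN, 2 were higher than both, at 63.2 and 49.5 TPM, and both were on plate FACS086_4, so the gene passed the same comparison when only the 16 D2 MSN of the Chat cells' own plate were used. Chrm1, Chrm3, Chrm4, Chrna4 and Chrna7 were listed at 0 in both Chat cells. For Chrm1 this stood against 45 of 78 MSN above 1 TPM. Among the 3448 genes that passed 1 TPM in 50% or more of the MSN, 1.77% were listed at 0 in both Chat cells, and Chrm1 was the single member in that set. For the other 4 genes, which most MSN also lacked, 2 cells say little. The Chat cells had more genes above 1 TPM than any MSN, at 10912 and 10251, and the part of this in their values was not tested.

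**Figure D5:**
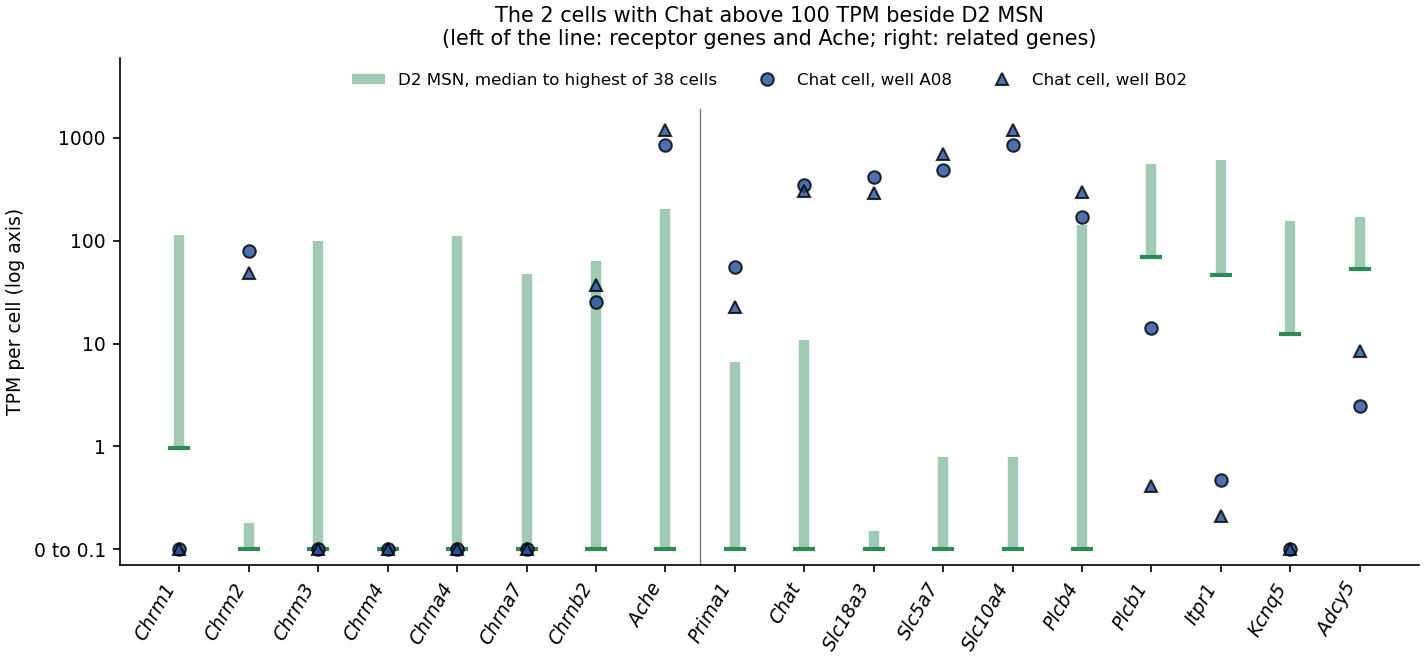
TPM in the 2 Chat cells (symbols) beside D2 MSN (bars from the median to the highest of 38 cells, with a short line at the median), on a log axis with values from 0 to 0.1 TPM on the lowest line. Chrm2 and Ache lie above the bars in both Chat cells, Chrnb2 lies inside its bar, and Chrm1, Itpr1 and Kcnq5 lie below the medians; the genes right of the line were picked from the lists after their values were seen.

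Other genes of acetylcholine signalling were taken from fixed lists. Of the genes of synthesis and transport, Chat was higher in the Chat cells because they were chosen by it, and Slc18a3, Slc5a7 and Slc10a4 were also higher in both than in every D2 MSN. Of the esterase partners, Bche was not listed, Colq was at most 0.412 TPM, and Prima1, the membrane anchor of acetylcholinesterase, was at 55.9 and 22.5 TPM in the Chat cells and at most 6.62 TPM in D2 MSN. One D1 MSN had 54.9 TPM of Prima1. The mean of Prima1 was 2.46 TPM over D1 MSN and 0.316 TPM over D2 MSN, a log2 fold of 1.39, with 5 and 3 cells above 1 TPM and folds of 1.04 and 1.73 in the large plates. Without the highest cell of each group the fold was 0.88, no longer past 1.

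Of the 13 other nicotinic subunits, 8 were listed and 1 averaged at least 1 TPM over the MSN. This was Chrnb1, known as a muscle subunit, with a log2 fold of 1.49 that rested on a D1 MSN at 79.0 TPM: in plate FACS051_5 the fold was 0.12 and in FACS086_4 2.09. None of the 8 was higher in both Chat cells than in every D2 MSN. Chrna5, an accessory subunit, reached 3.02 TPM among D1 MSN, with all D2 MSN and both Chat cells at 0, and Chrna3, Chrna6, Chrna9, Chrna10 and Chrne were not listed.

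Of the chaperones and Ly6 proteins that assist or modulate nicotinic receptors, several were found in more MSN than Chrnb2, while Lypd6 and Lypd6b were each above 1 TPM in 1 MSN. Ly6h was above 1 TPM in 35 of 40 D1 MSN and 33 of 38 D2 MSN, at a mean of 118 ± 167 and 235 ± 370 TPM (SD). Tmem35a, a chaperone of Chrna7-type receptors, was above 1 TPM in 23 and 15 cells, Ric3 in 19 and 13, and Lynx1 in 21 and 18. Of the 6 genes of this list with a fold, 0 were past 1 in either direction, beside 18.4% and 12.9% of all genes. The median fold was 0.18. Ly6h came closest, with -0.98. Of the 8 listed, 0 were above every D2 MSN in both Chat cells.

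Several genes of the Gq arm of M1, M3 and M5 were found in most MSN. Plcb1, the phospholipase C isoform, was above 1 TPM in 36 of 40 D1 MSN and 34 of 38 D2 MSN, Itpr1, the IP3 receptor, in 38 and 34, and Prkcb, a protein kinase C, in 38 of each. Of 11 genes with a fold, 3 were past 1 towards D1 MSN and 1 towards D2 MSN, beside 18.4% and 12.9% of all genes. Among the 3 was Prkca, another protein kinase C, at 1.21. In the large plates Prkca had folds of 1.16 and 2.11, and the others of the 3 were not past 1 in both. Plcb4 was past 1 towards D2 MSN, at -2.50, with -2.89 and -2.31 in the plates. It passed 1 TPM in 7 of 40 D1 MSN and 8 of 38 D2 MSN, up to 4.48 and 142 TPM. The median fold of the list was 0.30.

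The Chat cells held this arm unevenly. Plcb4, at 170 and 296 TPM, was the 1 gene of 12 above every D2 MSN in both. Plcb1 was at 14.2 and 0.410 TPM against a D2 median of 69.3, Itpr1 at 0.466 and 0.212 TPM against 46.2, and Kcnq5 was listed at 0 in both against 12.5 (these 3 were named after their values were seen). Gnaq, the Gq alpha subunit, was at 40.5 and 53.0 TPM, inside the D2 range of up to 220 TPM. Plcb1, Itpr1 and Kcnq5 were thus low where Chrm1 was listed at 0, and Plcb4 was high.

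For the Gi/o arm of M2 and M4, 8 of 9 genes were listed and all 8 had a fold, with a median of 0.06. Gnai1, an inhibitory G protein, and Kcnj3, a GIRK channel subunit, were past 1 towards D1 MSN, with 1.11 and 1.47. Gnai3 (-1.41) and Kcnj9 (-1.12), of the same 2 families, were past 1 towards D2 MSN. These were 2 of 8 in each direction, beside 18.4% and 12.9% of all genes. None of the 4 was past 1 in both large plates: Gnai1 had 0.56 and 1.24, Kcnj3 1.10 and 0.78, Gnai3 -1.83 and -0.90, and Kcnj9 -0.31 and -2.32. Kcnj3 and Kcnj9 were above 1 TPM in at most 4 cells of a group. Gnao1, the Go alpha subunit, was above 1 TPM in 35 of 40 and 35 of 38 MSN and at 316 and 302 TPM in the Chat cells. Adcy5, the main striatal adenylyl cyclase, was above 1 TPM in 38 of 40 and 36 of 38 MSN and at 2.47 and 8.47 TPM in the Chat cells against a D2 median of 53.0 TPM, and 0 of the 8 genes were above every D2 MSN in both Chat cells.

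Most MSN held few of the 8 genes above 1 TPM. There were 0 in 8 D1 MSN and 7 D2 MSN, 1 in 17 and 10, 2 in 9 and 14, 3 in 4 and 5, 4 in 1 and 1, and 5 in 1 and 1. Both Chat cells had 3 (Chrm2, Chrnb2 and Ache). The number per MSN and the number of genes found in the cell had a Spearman rho of 0.34 over 78 cells (0.40 and 0.27 in the large plates), so cells with more genes found tended to have more of these. The D1 MSN with 5 of them, in well B08 of plate FACS051_5, had 132 TPM of Chrna4, 42.4 of Chrnb2, 30.7 of Chrna7, 33.7 of Ache and 3.91 of Chrm3. The same cell had the 14.7 TPM of Chat given above, and its MSN markers summed to 5127 TPM. A D2 MSN in well B05 of plate FACS086_4 had 112 TPM of Chrna4, 36.01 of Chrna7, 203 of Ache and 1.15 of Chrm3, with Chrm1 and Chrnb2 listed at 0.

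Pairs of genes were counted in the same cells, as a description without a test. Chrna4 and Chrnb2, the pair of the main heteromeric receptor, were both above 1 TPM in 4 MSN, which is 44.4% of the 9 cells with Chrna4 and 15.4% of the 26 with Chrnb2. Chrnb2 and Ache were together in 12 cells (46.2% of 26 and 50.0% of 24), and Chrm1 and Ache in 15 (33.3% of 45 and 62.5% of 24). Chrm1 and Chrm3 were together in 1 cell, 2.22% of the 45 with Chrm1 and 12.5% of the 8 with Chrm3, and their Spearman rho over 78 MSN was -0.34. The rho of all other pairs counted lay between -0.04 and 0.28. By their shares alone, Chrna4 and Chrnb2 would be together in 3 cells, and Chrnb2 and Ache in 8. Chrm1 would be with Ache in 13.8 cells and with Chrm3 in 4.62. The genes of a cell share its library and its number of genes found.

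The genes whose TPM followed a member most closely across the 78 MSN were taken among the 7769 genes that passed 1 TPM in 25% or more of the MSN, a limit that Chrm1, Chrnb2 and Ache passed. For Chrm1 these were Rap1gap (Spearman rho 0.51), Csrnp3 (0.50) and Dld (0.50). For Chrnb2 they were Gm17139 (0.49), Fbll1 (0.48) and Rab3a (0.45), and for Ache Ggt7 (0.46), 1700030K09Rik (0.42) and Gm28370 (0.41). In the large plates the 9 values ran from 0.33 to 0.62. The values are the highest of 7769 and have no p. Several of these genes followed the number of genes found in the cell more closely still or about as closely, such as Gm28370 (0.67), Rap1gap (0.51) and Dld (0.50).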

How the data were processed

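Single cells of the dorsomedial striatum were sorted by FACS, and cDNA was made with the SMARTer v3 kit. The TPM values per gene and cell were made and deposited by the authors. The submitters' processing notes name bcl2fastq 2.18, STAR 2.5.0, FastQC 0.11.5, featureCounts 1.5.1 and DESeq2 1.14.1 with mm10/GRCm38, and how TPM were made and on which annotation is not given in the sources used here. The lowest value above 0 was 1.75e-09 TPM, so values are not whole reads over a length. Depth per cell is unknown.

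Groups came from the marker gene in the labels, and Drd2 cells above 100 TPM of Chat were set apart. The members and gene lists were chosen with earlier results of these data known. The rule for naming genes took the members and list genes past a log2 fold of 1 or above every D2 MSN in both Chat cells. It also took the 3 genes most alike each member above 1 TPM in 25% or more of MSN. Other list genes in the text, such as Ly6h, Prkcb, Gnao1 and Adcy5, met neither condition and were named outside this rule. Marker lists were MSN, D1 MSN, D2 MSN, cholinergic and other interneurons, oligodendrocytes, astrocytes, microglia, endothelial cells and cortical excitatory neurons. The summed TPM of the lists not given elsewhere reached at most 2.51 (other interneurons), 359 (oligodendrocytes), 271 (microglia), 277 (endothelial cells, all from Pecam1 in the highest cell) and 147 (cortical excitatory neurons) in an MSN.

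The log2 fold used a pseudocount of 1 TPM and genes averaging at least 1 TPM over the MSN. Shares have exact Clopper-Pearson 95% intervals, and a count of 0 is given with the share that 3 cells would make. Per the study's methods the MSN came from 3 animals in 3 experiments, but no source used here ties a cell or plate to an animal, so each group is 1 sample and no test was made. Some genes of the Gq list are counted but not reported here by name. The steps were tested on simulated data without values of 0, and folds were checked only at means above those of most members. Folds carried by few cells were not covered by that check. Gene models and sequences came from GENCODE M21 and RefSeq loci from GRCm38.p6. Scripts ran under Python 3.11.15, with scipy 1.17.1 for intervals, pandas 2.3.3 and numpy 2.4.6 for tables, and matplotlib 3.10.9 for plots.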

Additional observations from a re-analysis of the deposited data

How the results depend on the processing

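The alternatives changed the pseudocount (0.1 or 10 TPM), the mean, the scaling, the plates, the cells kept, the limit of 1 TPM and the set of all genes. After the data were seen, 3 were added for the members: both Drd1 cells with few MSN markers left out, the highest cell of each group left out, and the Chat cells set against every MSN. The count of members past a log2 fold of 1 towards D2 MSN was 1 and became 0 with a pseudocount of 10 TPM and with the difference of mean log2 values, 3 in plate FACS086_4 alone (Chrna4, Chrnb2 and Ache), 3 with the Chat cells kept among the Drd2 cells (Chrm2, Chrm3 and Ache) and 2 without the highest cells (Chrm3 and Chrna4). Towards D1 MSN it was 0, with Chrm4 not counted, and 1 in plate FACS051_5 alone (Chrna4). The members above 1 TPM in at least 1 cell numbered 7 in D1 MSN and 6 in D2 MSN, and 5 to 8 under the alternatives run. The 2 members above every D2 MSN in both Chat cells were 2 to 3 under the alternatives run.

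Over these settings the fold of Chrm3 ran from -4.21 to -0.43 and was below 0 in each, with no fold in plate FACS086_4. Those of Chrna4 (-3.37 to 1.29), Chrnb2 (-2.16 to 0.62), Chrna7 (-0.76 to 0.19), Ache (-2.76 to 0.12) and Chrm1 (-0.08 to 0.89) had both signs. Of the 10 other list genes past 1, the number past 1 in the same direction was 0 at a pseudocount of 10 TPM, 4 when mean log2 values were subtracted, 7 with the Chat cells kept, 6 and 7 in the large plates and 8 without the highest cells (a check added after the data were seen), and none turned its direction in the alternatives run. The cause was not tested. Of 80 recomputed shares of cells, 74 lay inside the 95% interval of the share reported. No paired analysis was possible because no source used here ties cells of the groups to the same animal. Each of the 3 plates held both groups, and values within the large plates are given in place of a pairing. TPM without read counts limit what a 0 can show.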
